A study of Rattus norvegicus with 12 samples.

Results

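The liver, gut and kidney microRNAs (miRNAs) rno-miR-122, rno-miR-192, rno-miR-194 and rno-miR-215 were followed rat by rat in the soleus muscle. They were taken by name from the array's rows, without their star strands, and are 4 of the 677 rat miRNAs measured. The 12 rats were male Sprague-Dawley offspring, 1 year old, and each gave 1 array. For 6 of them the dam had eaten a control diet, and for the other 6 (HF offspring) a high fat diet with added lard and sugar, which began before conception and lasted until the pups were weaned. All offspring ate standard chow after weaning, so the groups differ in the diet of the dam and not in what they ate as adults. The sources used here do not say which rats were littermates, and the p-values treat each rat as a separate animal.

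A miRNA is a short RNA that guides repression of messenger RNAs, largely through its seed, the bases near its 5′ end that pair with the target. miR-122 is the best known miRNA of hepatocytes, where it is very abundant and acts in lipid and cholesterol metabolism. miR-192, miR-194 and miR-215 are typical of intestine, kidney and liver, and are made from a pair of gene clusters, each of which carries a copy of miR-194. Skeletal muscle is instead known for miR-1, miR-133 and miR-206, and slow muscle such as the soleus also for miR-499 and miR-208b.

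The mature sequences show which of the 4 could act on the same targets. They are from RefSeq (GRCr8), which matched all 4 names, and the capitals mark the seed, bases 2 to 8.
rno-miR-122-5p: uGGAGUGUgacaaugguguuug
rno-miR-192-5p: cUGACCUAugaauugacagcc
rno-miR-215: aUGACCUAugauuugacagaca
rno-miR-194-5p: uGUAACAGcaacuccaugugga
miR-192 and miR-215 have the same seed and are identical at 18 of the 21 positions compared from the 5′ end. miR-194 and miR-122 each have a seed of their own, and the other pairs are identical at 4 to 7 positions.

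The genes of miR-192, miR-194 and miR-215 lie side by side in GRCr8, and that of miR-122 lies apart. On chromosome 1, Mir194-2 gives mature miR-194 at chr1:212994038-212994059 and Mir192 gives miR-192 at chr1:212994232-212994252, with 100 bases between their hairpins. No other annotated gene spans this pair. On chromosome 13, Mir194-1 gives the identical mature miR-194 at chr13:99382730-99382751 and Mir215 gives miR-215 at chr13:99383003-99383024, with 191 bases between the hairpins. Both lie within the Iars2 gene, which encodes the mitochondrial isoleucyl-tRNA synthetase. The array reads one mature miR-194, so its signal cannot be divided between the clusters. The mature miR-122 lies at chr18:61028831-61028852, within a transcribed pseudogene, LOC134482951. All of these miRNA genes are on the plus strand. On the opposite strand, Mir3591 gives a mature miRNA that lies over miR-122. This miR-3591 has a row of its own on the array and was detected on 0 of 12 arrays.

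The deposited value for each miRNA is a total signal intensity with a detection call, and an undetected miRNA is listed at 0.1. Arrays were scaled to a common 75th percentile, which before scaling ran from 864 to 1911 signal units, and scaled signals below 5.17 were set to this floor. The arrays detected between 177 and 220 miRNAs each. All 12 arrays detected 162 of the 677 miRNAs, 6 or more arrays detected 193, and no array detected 432. Each of 2 slides held 3 rats of each group. The muscle miRNAs were there in all rats, with a summed scaled signal of 165393 to 289822 in control offspring and 148139 to 261082 in HF offspring over 7 rows, of which 5 were detected on all 12 arrays and miR-208b-5p on none. One library stood apart. In rat H3, of the HF offspring, miR-499 was at 366 and miR-206 at 9354, each the lowest of the 12 rats, miR-208b-3p was not detected, and miR-200a (12.2) and miR-200b (8.82) were detected in this rat alone. Values that moved most without H3 are given both ways.

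Of the 4 miRNAs, 3 were detected in soleus. miR-192 was detected in all 12 rats, miR-122 in 10 and miR-194 in 8, while miR-215 was listed at 0.1 in every rat. The star strands miR-122*, miR-192* and miR-194*, the opposite arms of the same hairpins, were detected on 0 of 12 arrays. The array thus read miR-192 and miR-194 and not miR-215, the partner that shares the seed of miR-192, but this says only that miR-215 was below detection. Signals of different miRNAs are read by different probes, so their levels were not set against each other.

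At the floor of 5.17, miR-122 varied more between rats than any other of the 193 miRNAs tested. In control offspring its scaled signal was 406 in rat C73, 258 in H10, 43.8 in A89, 13.6 in A75 and 13.5 in A110, and it was not detected in C60. In HF offspring it was 302 in C25, 169 in H20, 106 in C51, 30.6 in H1 and 22.6 in H3, and it was not detected in A37. High, low and undetected rats occurred in both groups, and the groups overlapped over nearly their whole range. The highest detected signal was 29.98-fold the lowest detected one. It was 64.8-fold the lowest signal of any miRNA detected on the array of C60 and 78.5-fold the floor, which applies to A37. Both of these levels come from probes of other miRNAs. They set no lower bound on the fold of miR-122 over the undetected rats. The error that the scanner software gives for a detected miR-122 signal was between 7.62% and 26.3% of it. The highest and lowest rats differed by more than this error, while A75 and A110 did not. The error is that of a signal on its own array. No rat had a repeat array, so how far miR-122 varies between arrays of the same rat was not tested. The comparison with this error therefore does not show how much of the range lies between the animals.

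**Figure D1:**
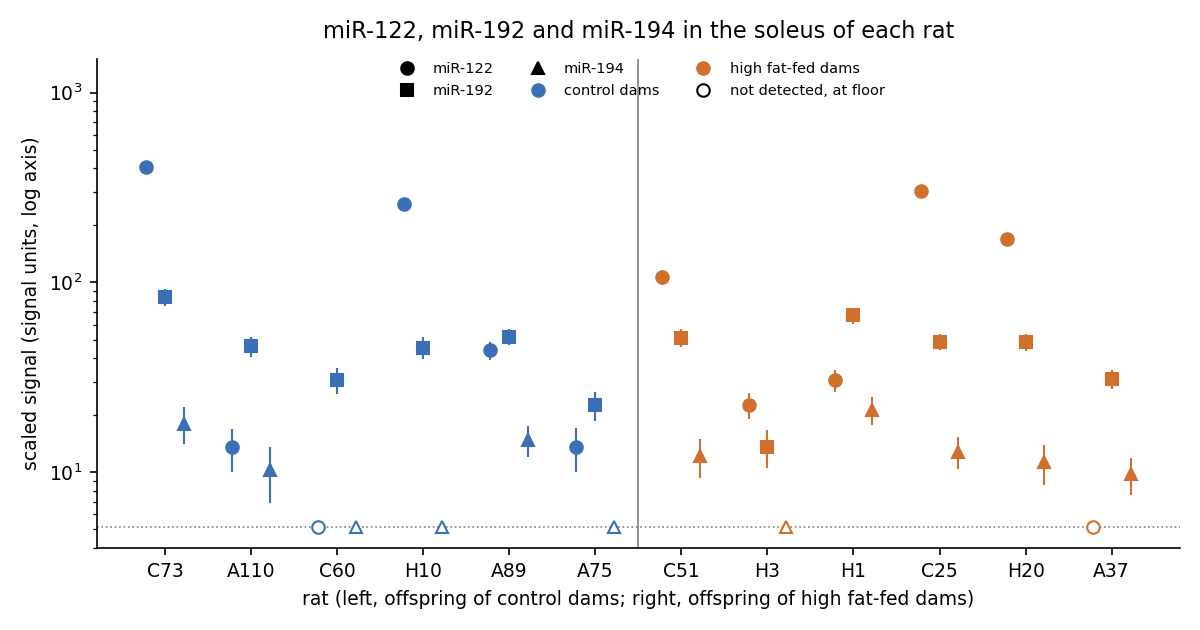
Scaled signal (log axis) of miR-122 (circles), miR-192 (squares) and miR-194 (triangles) in each rat. Bars are the scanner software's error, open symbols at the dotted line are undetected signals set to the floor of 5.17, and miR-122 runs from undetected to 406 in control offspring and from undetected to 302 in HF offspring.

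miR-192 varied far less. In control offspring it was 83.7 in C73, 51.8 in A89, 46.0 in A110, 45.4 in H10, 30.7 in C60 and 22.5 in A75. In HF offspring it was 67.0 in H1, 51.2 in C51, 48.7 in both C25 and H20, 31.2 in A37 and 13.6 in H3. The highest rat had 6.17-fold the signal of the lowest, and the lowest was H3, the library that stood apart. Without H3 the range was 3.72-fold. The software's error was 9.69% to 22.4% of the signal, so neighbours in the middle of this order, such as A110, H10, C25 and H20, do not differ beyond it.

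miR-194 was near the limit of detection. It was 18.1 in C73, 14.8 in A89 and 10.3 in A110 among control offspring and not detected in C60, H10 and A75. Among HF offspring it was 21.3 in H1, 12.8 in C25, 12.1 in C51, 11.3 in H20 and 9.75 in A37, and it was not detected in H3. Detected signals spanned 2.19-fold, with a software error of 16.8% to 32.7%, so most neighbouring rats cannot be placed in order by miR-194 alone.

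The standard deviation (SD) of the log2 scaled signal over the 12 rats was 2.25 for miR-122, the highest of the 193 miRNAs detected on at least 6 arrays. The next, miR-96, had 1.95, and the median of the 193 was 0.364. miR-194 ranked 29 with an SD of 0.74 and miR-192 ranked 31 with 0.71. Without H3 the SD of miR-192 was 0.53 and that of miR-194 was 0.72. The SD of miR-194 depends on where its 4 undetected rats are placed and was 1.69 with a floor 4 times lower. That of miR-122, with 2 undetected rats, was 2.82 with a floor 4 times lower and 1.73 with a floor 4 times higher. Ranks were taken at the floor of 5.17 only. Taken within the diet groups, the SD of miR-122 was 2.36 and still ranked 1, so its range did not lie between the groups. miR-122 was one of the 4 because its wide variation was already known, so this rank describes it and was not tested.

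**Figure D2:**
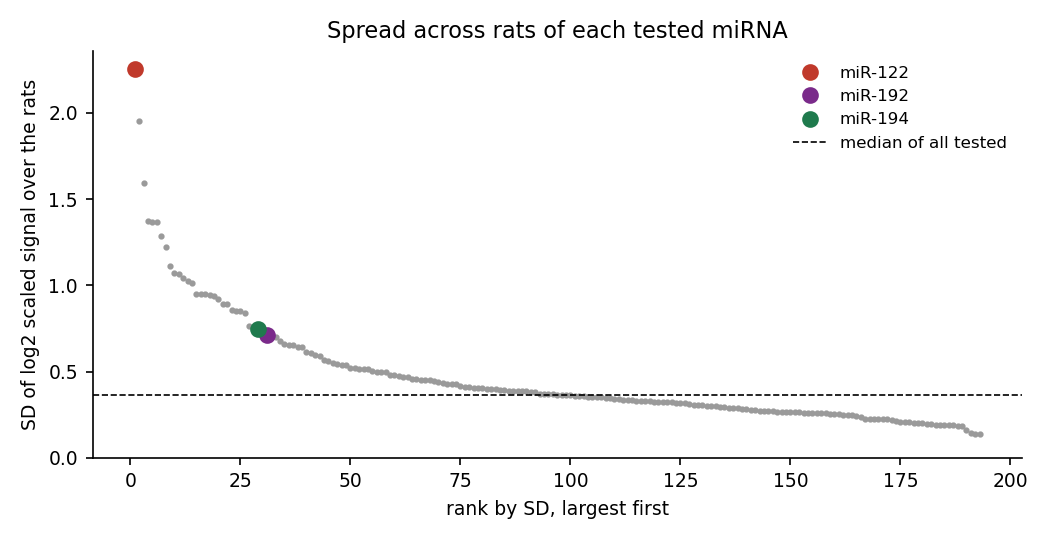
SD of the log2 scaled signal over the 12 rats for each of the 193 miRNAs tested, ordered from the largest. miR-122 is first at 2.25, miR-194 is at rank 29 and miR-192 at rank 31, and the dashed line is the median of 0.364.

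The question the 4 miRNAs pose is whether the signal of miR-122 follows that of miR-192 and miR-194 from rat to rat. All 3 pairs were compared by correlation of log2 scaled signals over the 12 rats, with permutation tests and adjustment over the 3 pairs. Over all 12 rats, r was 0.80 for miR-192 with miR-194, 0.57 for miR-122 with miR-192 and 0.38 for miR-122 with miR-194. The first pair alone passed adjustment on both r and rho. The order of the first and second pair turned on slide 2 (0.62 and 0.75) and with a floor 4 times higher (0.35 and 0.63).

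For miR-192 and miR-194, Pearson's r was 0.80 (permutation p = 0.00073, adjusted p = 0.00219) and Spearman's rho was 0.95 (permutation p = 3.0e-05, adjusted p = 9.0e-05). The rats with the highest miR-192, C73 and H1, were also the highest for miR-194, in the opposite order. The 3 rats with the lowest miR-192, H3, A75 and C60, all lacked a detected miR-194. H10 was the exception, with a miR-192 of 45.4 in the middle of the range and no detected miR-194. Over the 8 rats in which both were detected, r was 0.85 (exact permutation test, p = 0.00523, adjusted p = 0.0157). With a floor 4 times higher, above every miR-194 signal but that of H1, r over all rats was 0.35. Without the rats farthest from the median of miR-192, A75 and H3, r was 0.76 (permutation p = 0.0115, adjusted p = 0.0345), and without H3 alone it was 0.81. Within slides, r was 0.89 on slide 1 (exact permutation test, p = 0.0139, adjusted p = 0.0417) and 0.62 on slide 2 (exact permutation test, p = 0.139, adjusted p = 0.208). Within diets, it was 0.83 in the 6 control offspring (exact permutation test, p = 0.025, adjusted p = 0.075) and 0.95 in the 6 HF offspring (exact permutation test, p = 0.00417, adjusted p = 0.0125). With other scalings the relation was weaker, 0.61 with the 75th percentile taken over all miRNAs (adjusted permutation p = 0.0775) and 0.63 after quantile normalization (adjusted permutation p = 0.0506), and it was 0.86 without scaling. Spearman's rho passed adjustment after quantile normalization (0.71, adjusted permutation p = 0.0380). Where r passed, rho did not on slide 1 (0.93, adjusted exact permutation p = 0.0667) or in HF offspring alone (0.94, adjusted exact permutation p = 0.05).

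For miR-122 and miR-192, r was 0.57 (permutation p = 0.0483) and rho was 0.61 (permutation p = 0.0373), and neither passed adjustment over the 3 pairs (adjusted p = 0.0725 and 0.0560). C73 was highest for both. The other rats with a high miR-122, C25, H10, H20 and C51, had a miR-192 between 45.4 and 51.2, while A110 and A89 had a miR-192 in or next to that range (46.0 and 51.8) with a miR-122 of 13.5 and 43.8. H1 had the second highest miR-192 with a miR-122 of 30.6. A similar miR-192 thus went with miR-122 signals that differed severalfold. Over the 10 rats with both detected, r was 0.55 (permutation p = 0.0988). Without the rats farthest from the median of miR-122, C73 and C25, r was 0.44 (permutation p = 0.202). Without C73 alone it was 0.47 and without C25 alone 0.58. Without H3, r was 0.67 (permutation p = 0.0223, adjusted p = 0.0335) and without H1 it was 0.63 (adjusted permutation p = 0.0481), both past the threshold. Spearman's rho passed adjustment with values centred within slides (0.71, adjusted permutation p = 0.0241) or within diets (0.63, adjusted permutation p = 0.0486), without scaling (0.69, adjusted permutation p = 0.0234), after quantile normalization (0.65, adjusted permutation p = 0.0380) and without H10 (0.68, adjusted permutation p = 0.0243). The call for this pair thus depends on the measure and the setting. Within slides Pearson's r was 0.57 and 0.75, and within diets 0.75 in control offspring and 0.46 in HF offspring, and none of these 4 passed an exact permutation test (p = 0.236, 0.0792, 0.0972 and 0.396).

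For miR-122 and miR-194, r was 0.38 (permutation p = 0.222, adjusted p = 0.222) and rho was 0.50 (permutation p = 0.10). Rat H10, with a miR-122 of 258, had no detected miR-194, and A37, with no detected miR-122, had a miR-194 of 9.75. Without H10, r was 0.59 (adjusted permutation p = 0.0573) and rho was 0.69 (adjusted permutation p = 0.0243), and without C60 r was 0.25. Over the 7 rats with both detected, r was 0.10 (exact permutation test, p = 0.819), and without C73 and C25 it was 0.17 (permutation p = 0.626). Within slides r was 0.66 and 0.12, and within diets 0.44 and 0.27 in control offspring and HF offspring. Whether the correlations of the 3 pairs differ from each other was not tested.

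**Figure D3:**
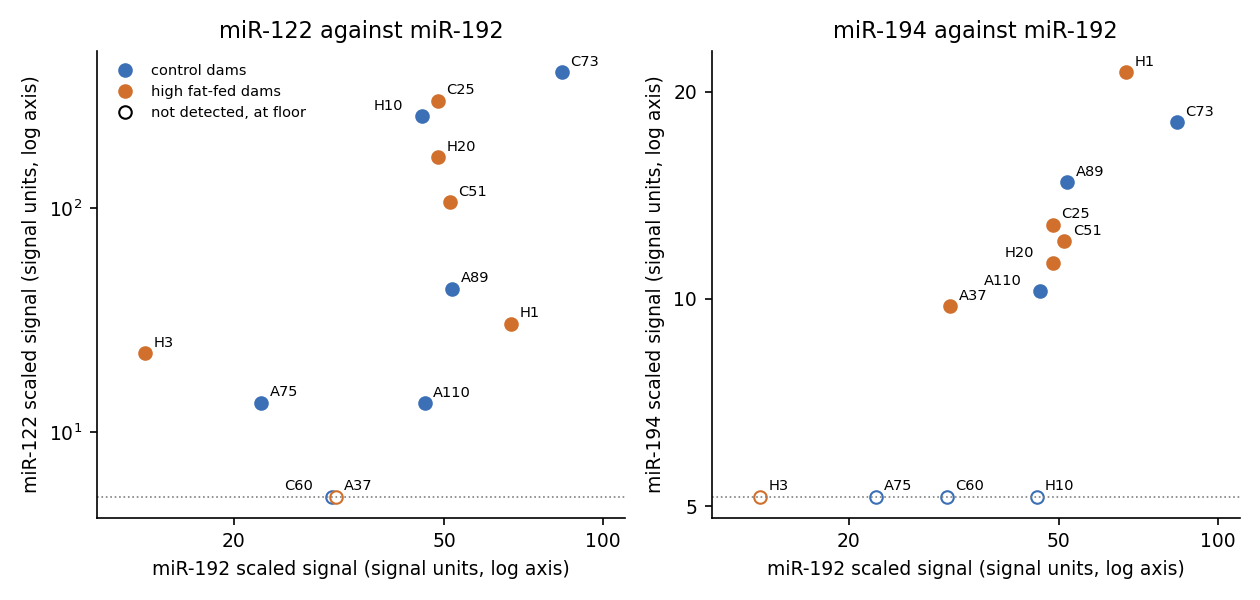
Left, scaled signal of miR-122 against that of miR-192; right, miR-194 against miR-192, one point per rat on log axes, with open points where a miRNA was not detected and is drawn at the floor of 5.17. miR-194 runs along with miR-192 (r = 0.80), while rats with a miR-192 near 50 have a miR-122 from 13.5 to 302.

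These correlations were set against those of every other miRNA tested. Each of the other miRNAs tested was regressed on miR-122 in limma, a linear model that shares the estimate of spread among miRNAs. None passed an adjusted p of 0.05 (0% called; the smallest adjusted p was 0.943), and 8 (4.17%) had an unadjusted p under 0.05, all with a positive slope. miR-192 was among them, and miR-194 was not. Without rat A75 the count was 5, and miR-192 was no longer among them (n = 11, limma p = 0.0594). Without H3 the count was 10 (5.21%), and miR-192 was among them (n = 11, limma p = 0.0131, adjusted p = 0.530). The slope of miR-192 was 0.18 log2 units per log2 unit of miR-122 (standard error, SE, 0.075, n = 12, limma p = 0.0317, adjusted p = 0.943). That of miR-194 was 0.12 (SE 0.088, n = 12, limma p = 0.179, adjusted p = 0.943). The 5 miRNAs with the highest r with miR-122 were miR-511* (0.77), miR-20b-5p (0.70), miR-223 (0.68), miR-10a-5p (0.68) and miR-542-3p (0.60). miR-192 came sixth, at 0.57, and miR-194 was at rank 32. The median r of all others with miR-122 was 0.178. Without scaling it was 0.269, and miR-511* stayed first (0.60), miR-192 was second (0.58), miR-223 was at rank 11 (0.52), miR-20b-5p at rank 40 (0.40) and miR-194 at rank 72.

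The same regression on miR-192 gave many more weak associations. No miRNA passed an adjusted p of 0.05 (0% called), but 56 (29.2%) had an unadjusted p under 0.05 in limma, 51 with a positive and 5 with a negative slope. miR-122 and miR-194 were among them, which says little against a background of 29.2%. miR-194 had the smallest adjusted p with miR-192, 0.0633, at a slope of 0.84 (SE 0.18), and miR-122 had an adjusted p of 0.120. These counts depend on the rats and the scaling. Without H3, 28 had an unadjusted p under 0.05 and 3 passed adjustment, with miR-194 at an adjusted p of 0.0469. Without A75, 27 passed adjustment, and without scaling 44 did, with miR-194 at adjusted p values of 0.0335 and 0.0179. Without A75, miR-122 no longer had an unadjusted p under 0.05 with miR-192 (n = 11, limma p = 0.0525). The miRNAs with the highest r with miR-192 were miR-542-3p, miR-140 and miR-195, each at 0.83, then miR-194 and miR-19b, each at 0.80, while miR-122 was at rank 52 and the median was 0.346. Without H3, miR-194 kept an r of 0.81 and was at rank 5, miR-122 was at rank 15 with an r of 0.67 where the median was 0.283, and miR-542-3p, miR-140 and miR-195 were at 0.71, 0.66 and 0.61 (ranks 13, 21 and 25). For miR-194, miR-192 had the highest r over all 12 rats, followed by miR-547* (0.76), miR-320 (0.75), miR-503 (0.68) and miR-342-3p (0.64), and miR-122 was at rank 62. Without H3, miR-547* (0.817) came before miR-192 (0.812), at rank 2. Without scaling, miR-192 was at rank 3 for miR-194 with r = 0.86, where the median over all others was 0.524.

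**Figure D4:**
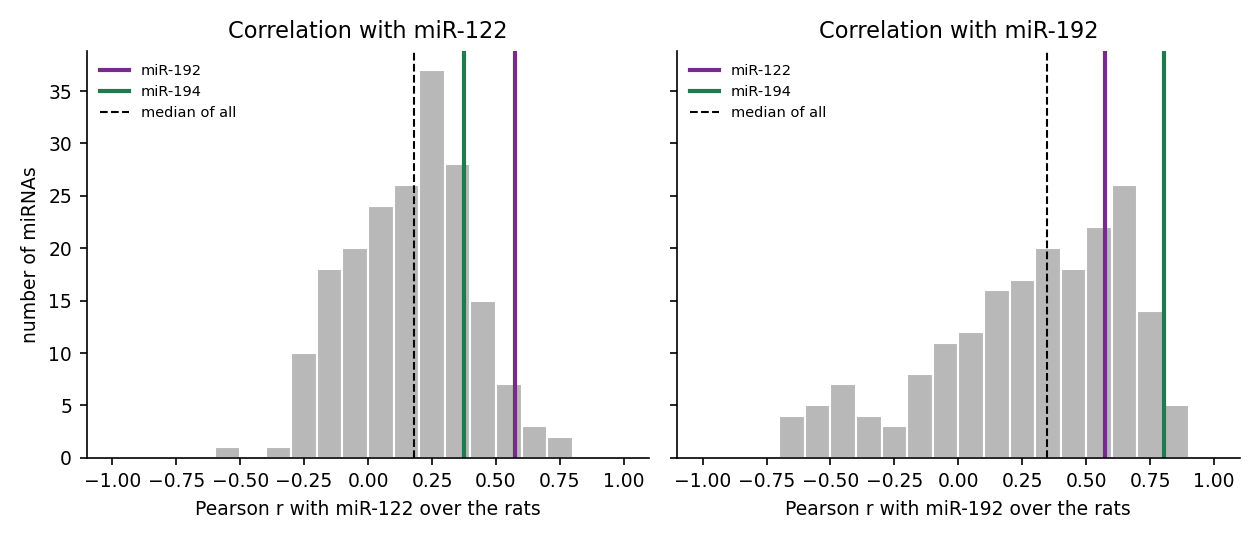
Number of miRNAs by Pearson's r with miR-122 (left) and with miR-192 (right) over the 12 rats, for the other miRNAs tested. miR-192 lies at 0.57 on the left, where the median (dashed) is 0.178, and miR-194 lies at 0.80 on the right, where the median is 0.346.

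miRNAs of other tissues that a soleus sample could hold were read beside the members. In whole muscle, fewer cells of a type and less RNA per cell cannot be told apart. Of the liver list, 3 of 5 names had a row, and miR-122 was the one detected in any rat. miR-802, another miRNA of hepatocytes, and miR-122* were not detected. In the list for gut, kidney and other epithelium, with 11 rows, 6 were detected in at least 1 rat and 5, miR-215, miR-200c, miR-141, miR-429 and miR-375, in none. The control offspring had between 35.0 and 124 as its summed scaled signal, and the HF offspring between 44.5 and 107. miR-203, a miRNA of epidermis, was detected in 10 rats and had an r of 0.33 with miR-192 and 0.011 with miR-122. Red blood cell miRNAs were detected in all 12 rats. Their summed scaled signal was 4631 to 8140 in control and 3605 to 7784 in HF offspring. This sum includes miR-16, which many cell types also express. In limma, 0 of these 3 (miR-451, miR-144 and miR-16) had an unadjusted p under 0.05 with miR-122, and 0 of 3 with miR-192. Without H3, which had the highest miR-451 (3054), 2 of 3 did with miR-192, beside 14.6% of all miRNAs in that fit, namely miR-451 (r = 0.55, n = 11, limma p = 0.0482) and miR-16 (r = 0.67, n = 11, limma p = 0.0365). With miR-122, 1 of the 4 white blood cell miRNAs had an unadjusted p under 0.05, beside 4.17% of all miRNAs, and with miR-192 1 of 4 did, beside 29.2%. Their summed scaled signal was 1411 to 1897 in control and 1219 to 1905 in HF offspring. The one with miR-122 was miR-223, of granulocytes and monocytes, with an r of 0.68 (n = 12, unadjusted limma p = 0.0250), which had an r of 0.10 with miR-192. The others had an r of 0.36 (miR-142-3p), 0.21 (miR-142-5p) and 0.27 (miR-150) with miR-122. miR-150, of lymphocytes, had an r of 0.66 with miR-192 (n = 12, unadjusted limma p = 0.0180), which was 0.22 without H3. The part of blood, liver or epithelial RNA in the signals of the members was not tested.

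Of the miRNAs of muscle itself, 0 of 6 tested had an unadjusted p under 0.05 with miR-122 in limma, beside 4.17% of all miRNAs. With miR-192, 4 of 6 did, beside 29.2% of all miRNAs, and without H3 0 of 6 did, beside 14.6%. miR-1 and miR-133a had an r of -0.58 and -0.61 with miR-192, and the slow-muscle miRNA miR-499 and miR-206 had 0.61 and 0.55. Without H3, r was -0.27, -0.51, -0.39 and -0.22 in that order, so the sign turned for miR-499 and miR-206 and stayed for miR-1 and miR-133a.

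Dam diet was compared as HF offspring minus control offspring in limma, over the 193 miRNAs tested. No miRNA passed an adjusted p of 0.05 (0 of 193, or 0% called; smallest adjusted p 0.685), and 2 of 193 (1.04%) had an unadjusted p under 0.05, both lower in HF offspring. The unpaired test that the study's methods name, run on the same values, also gave 0 after adjustment and 2 without it. With slide as a block the counts were 0 and 8, and with array weights 0 and 12. None of the members was among them. The median log2 difference of all 193 was -0.17, and it was 0.14 without scaling, so the differences below are to be read against such a shift.

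With undetected rats at the floor, the mean scaled signal of miR-122 in the control group was 123 ± 169 (SD, n = 6), and among HF offspring it was 106 ± 114 (SD, n = 6). The medians had the opposite order, 28.7 and 68.5. On the log2 scale the difference was 0.36 (SE 1.20, adjusted limma p = 0.931, exact permutation test over all rats p = 0.792). The 95% interval ran from -2.24 to 2.96, that is from 0.212-fold to 7.75-fold, so a severalfold difference in either direction lies within it. It was detected in 5 of 6 rats of each group. Without C60 the difference was -0.23 and without C73 it was 1.03. The rats' labels begin with A, C or H, letters that occur in both groups and whose meaning is not given in the sources used here. With this letter as a block it was -0.52, and with arrays weighted by their quality in limma it was 1.53.

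The control mean of miR-192 was 46.7 ± 21.2 (SD, n = 6) and the HF mean was 43.4 ± 18.5 (SD, n = 6). The log2 difference was -0.14 (SE 0.39, 95% interval -0.98 to 0.70, adjusted limma p = 0.913, exact permutation test p = 0.740), or 0.905-fold with an interval of 0.505 to 1.62. It was -0.45 on slide 1 and 0.16 on slide 2, and it was 0.16 without H3.

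The control mean of miR-194 was 9.77 ± 5.62 (SD, n = 6) and the HF mean was 12.1 ± 5.30 (SD, n = 6). The log2 difference was 0.39 (SE 0.39, 95% interval -0.46 to 1.24, adjusted limma p = 0.717, exact permutation test p = 0.394), or 1.31-fold with an interval of 0.725 to 2.36. Detection was in 3 of 6 control offspring and 5 of 6 HF offspring (Fisher's exact test, p = 0.545). The difference was 0.16 on slide 1 and 0.61 on slide 2, and it was 0.20 without H1 and 0.61 without H3. With a floor 4 times lower it was 1.05. Over the 8 rats with a detected miR-194 (3 control and 5 HF), the mean log2 signal was 3.81 in control and 3.70 in HF offspring, so the difference had the other sign, -0.11 (exact permutation test, p = 0.714). Within slides, the exact permutation test over 400 assignments gave p = 0.795 for miR-122, 0.775 for miR-192 and 0.41 for miR-194. For miR-215 no difference could be given, since neither group had a detected signal.

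**Figure D5:**
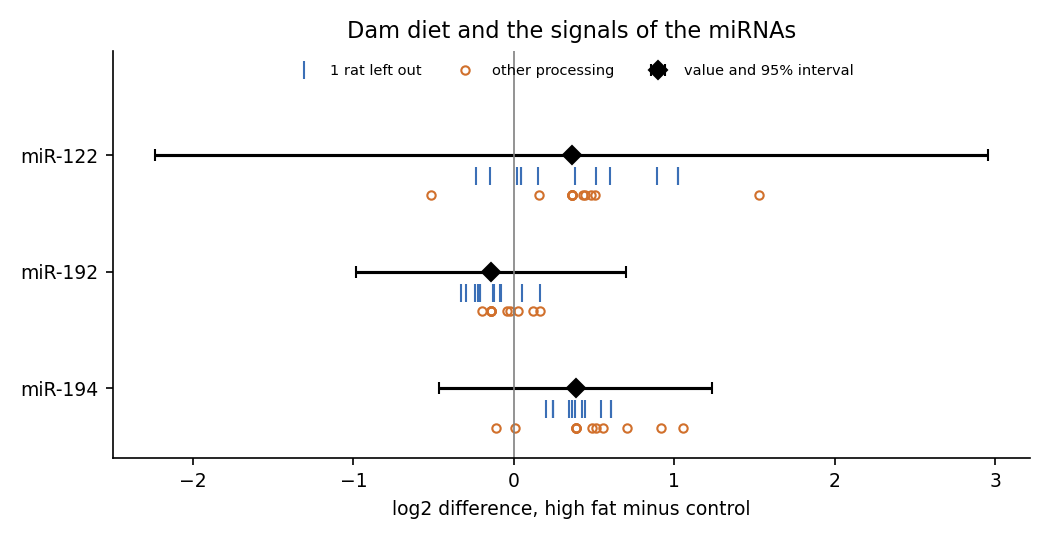
Log2 difference, HF offspring minus control offspring, of miR-122, miR-192 and miR-194. Diamonds and bars are the limma value with its 95% interval, blue marks are the value with 1 rat left out and open circles are other ways of processing, and all 3 intervals include 0 (-2.24 to 2.96 for miR-122).

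Slide and array brightness were read for the same miRNAs. Slide 2 minus slide 1 was 0.71 for miR-122, -0.082 for miR-192 and -0.20 for miR-194 on the log2 scale (exact permutation tests, p = 0.593, 0.859 and 0.658). The r of the scaled signals with the array's 75th percentile was 0.11, -0.00023 and 0.26 in that order (permutation p = 0.730, 0.999 and 0.417; adjusted p = 0.999 for each), and Spearman's rho was 0.018, 0.014 and 0.12. Without the arrays farthest from the median brightness, r was 0.082, -0.052 and 0.057. With values centred within slides, r was 0.59 for miR-122 with miR-192 and 0.80 for miR-192 with miR-194, close to the values over all rats.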

How the data were processed

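Soleus RNA (100 ng per rat) was labelled with Cy3 and hybridised to 1-colour Agilent rat miRNA arrays. The authors deposited 1 table per array, in which each miRNA has a total signal intensity, its error and a detection call from the scanner software. That software had subtracted the background and combined the spots, and arrays had not been normalized to each other. The genome build is not given in the sources used here, and coordinates are those of RefSeq GRCr8. The series' value table held the same intensity values as the array tables, with 0 differences.

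The 22 control rows were left out. Each array was divided by its 75th percentile over the 162 miRNAs detected on all 12 arrays, brought back to signal units by 1 common factor, floored at 5.17 (the median over arrays of the lowest scaled signal of a detected miRNA) and put on the log2 scale. A floor was used because undetected miRNAs, listed at 0.1, have no order among themselves. Diet groups came from the sample labels, and all 12 arrays were used, although the methods of the study give a smaller number of rats for 1 group. Diet and regressions on miR-122 and miR-192 were fitted in limma 3.58.1 (R 4.3.3) and adjusted by the Benjamini-Hochberg method over all miRNAs that 6 or more arrays detected. Exact permutation tests, Fisher's exact tests and correlations with 100000 permutations (all orders for 8 rats or fewer) used scipy 1.17.1 and numpy 2.4.6 under Python 3.11.15. Tests were two-sided. The numbers of arrays limit the precision.

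The miRNAs named were the 4 members, the miRNAs of the marker lists, and the 5 with the highest r with each detected member. miRNAs that set a library apart are named beside it, and a few others, such as miR-96 and miR-3591, where they are read. The miRNAs behind a count are otherwise not named. The members and lists were chosen with earlier results of these data known. The alternatives were other scalings, floors and detection filters, a block for slide or label letter, array weights, the methods' t-test, the value table and each rat left out. The diet difference without undetected rats, the regression on miR-192, the correlations over rats with both miRNAs detected and within each slide and diet, and the comparisons of slides and array brightness were added after the data were seen. Tested on simulated data in which 30 of 193 miRNAs were changed between the diets, limma recovered 12.5% of those changed by 0.5 on the log2 scale and 75.8% of those changed by 1. The changed miRNAs were drawn at random from all 193, whose median SD was 0.364. miR-122, miR-192 and miR-194 had SDs of 2.25, 0.71 and 0.74, so these shares do not give the recovery for the members.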

Additional observations from a re-analysis of the deposited data

How the results depend on the processing

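No miRNA passed the adjusted threshold for dam diet under any of 24 alternatives, or for association with miR-122 under any of 23. The direction of the diet differences, none of which passed the adjusted threshold, was not stable. For miR-194 it was -0.11 with undetected rats left out, an alternative added after the data were seen, and positive in the other alternatives, from 0.20 (without H1) to 0.61 (without H3) with 1 rat left out. A floor 4 times higher gave 0.0079, which by construction rests on H1 alone. For miR-122 it was -0.52 with the label letter as a block and ran from -0.23 (without C60) to 1.03 (without C73) with 1 rat left out, at -0.15 without C25. The difference of miR-192 turned to 0.17 when arrays were not scaled, 0.028 when the 75th percentile was that of all miRNAs, 0.12 when arrays were weighted and 0.16 on slide 2 alone. With 1 rat left out it ran from -0.33 (without A75) to 0.16 (without H3), at 0.049 without C73. The correlation of miR-122 with miR-192 ran from 0.47 (without C73) to 0.67 (without H3) with 1 rat left out. That of miR-122 with miR-194 was -0.19 with a floor 4 times higher and ran from 0.25 (without C60) to 0.59 (without H10) with 1 rat left out. That of miR-192 with miR-194 ran from 0.77 to 0.90 with 1 rat left out and passed adjustment in each of these. On Pearson's r, it did not pass with the 75th percentile over all miRNAs (0.61), after quantile normalization (0.63), with a floor 4 times higher (0.35, adjusted permutation p = 0.503), on slide 2 alone (0.62) or in control offspring alone (0.83, adjusted exact permutation p = 0.075). The higher floor lies above every miR-194 signal but that of H1, and the single slide or group has 6 rats. For the other changes the cause was not tested. The number of miRNAs associated with miR-192 at an adjusted p under 0.05 was 0, and it was 44 without scaling, 7 with a block for slide, 12 after quantile normalization, 1 with dam diet as a covariate, and 0 to 27 with 1 rat left out. The rats' labels gave the groups no replicate number in common, and no paired analysis was possible because no label pairs a control with a high fat rat. Among the members detected in any rat, signals near the floor limit miR-194 most, with 4 of 12 rats undetected. miR-215 was detected in no rat.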
